A study of Mus musculus with 27 samples.

Results

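The genes described here lie on mouse chromosome 16, where counts from the CAST-EiJ (CAST) allele exceeded those from the BL/6J (BL6) allele. The chromosome was chosen by its allelic share in an earlier look at the same data, so the share is a description here and carries no test. The members are all genes of chromosome 16 in GENCODE M21 with a mean of at least 20 allelic counts (BL6 plus CAST) per library. They number 399 of the 1249 chromosome 16 genes in the table and of 12754 genes genome-wide that reached the same minimum. Of the members, 369 are protein-coding genes, 12 processed pseudogenes, 8 antisense genes and 7 lincRNA genes, and they run from position 3730510 to 98031801 in GRCm38. Just outside the minimum lay 4930451G09Rik (19.4 allelic counts per library), Gm15743 (19.4) and Gm7204 (19.96), and just inside it lay Bcl6 (20.1), Fam3b (20.6) and Vgll3 (20.6).

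An F1 hybrid line carries one chromosome set from each parental strain, so that RNA reads covering a base that differs between the strains can be assigned to one allele. For most autosomal genes the parental alleles are transcribed at similar rates, and a gene can depart from this through strain differences in its own regulatory sequence or through imprinting. Mouse embryonic stem (ES) cells are the cultured counterpart of the early embryo's pluripotent cells. DNA copies of the chromosome were not measured here.

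The study sequenced total RNA of TX1072, a hybrid mouse ES cell line (BL/6J x CAST-EiJ) in which doxycycline switches on Xist, the RNA that silences an X chromosome. All groups carried SPEN, a repressor that binds Xist, fused to an auxin-inducible degron (SPEN-AID), and all grew with serum, 2i inhibitors and LIF. The GFP line expressed BglG-GFP and the SPOC line BglG-GFP-SPOC, which adds a domain of SPEN to a protein meant to be tethered to Xist RNA. Cells were untreated (GFP n = 4, SPOC n = 5), exposed for 24 h to doxycycline at 1 ug/mL (Dox; n = 4 and 5), or exposed to auxin for 12 h before 24 h with both agents (Dox+Auxin; n = 4 and 5). Each construct is represented by 1 line, and no group received auxin alone. The design text speaks of 4 biological replicates, while the SPOC groups hold 5 libraries each.

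Total counts per library ranged from 28936459 to 45489094 and counts assigned to an allele from 9911844 to 15834677. All 8 ES cell markers reached a library-size-scaled count (CPM) of 1 on average, summing to 5449 to 6346 CPM per library. Of 7 fibroblast markers 3 did so, summing to 23.4 to 36.7 CPM, with Col3a1, Dcn, Lum and Postn below 1 CPM, and of 6 primitive endoderm markers 2 did so, summing to 3.16 to 6.53 CPM. The library labelled SPOC untreated replicate 2 went against its label. It held 179 CPM of Xist, whereas the other SPOC untreated libraries held 1.01 to 1.67 CPM and the GFP untreated libraries 5.47 to 7.84 CPM, so counts of called members and the SPOC values of the named genes that passed the test against untreated cells are also given without it. The allelic columns went against the totals they are named after: in all 27 pairs the BL6 and CAST counts summed to more than the total of the same name for 1303 to 5292 genes. Allelic values are therefore given over the 27 pairs with no group attached, and whether the share moved with a treatment was not tested.

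To show the kind of locus involved, the 250 bases before the start of 3 members are printed from RefSeq (GRCm38.p6), with the bases of CG pairs in capitals. Abcc5, a membrane transporter of the ABC family, has a BL6 share of 36.7%, between the members' median of 33.4% and their upper quartile of 38.2%. Ppp1r2, an inhibitor subunit of protein phosphatase 1, has a share near 0, and Itgb5, an integrin beta subunit, leans to BL6 with 65.04%. The coordinates are chr16:20426395-20426644 on the minus strand for Abcc5, chr16:31275278-31275527 on the minus strand for Ppp1r2 and chr16:33829415-33829664 on the plus strand for Itgb5.
Abcc5: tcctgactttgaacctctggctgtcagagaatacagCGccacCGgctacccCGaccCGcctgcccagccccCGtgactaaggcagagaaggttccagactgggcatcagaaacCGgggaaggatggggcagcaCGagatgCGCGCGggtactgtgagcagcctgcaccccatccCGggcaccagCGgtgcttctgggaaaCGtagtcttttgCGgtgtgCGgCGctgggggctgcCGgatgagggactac
Ppp1r2: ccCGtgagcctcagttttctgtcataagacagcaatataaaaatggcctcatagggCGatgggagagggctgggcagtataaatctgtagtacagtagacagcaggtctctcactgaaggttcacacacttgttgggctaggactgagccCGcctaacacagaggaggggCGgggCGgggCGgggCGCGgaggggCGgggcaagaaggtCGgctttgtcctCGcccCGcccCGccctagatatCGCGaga
Itgb5: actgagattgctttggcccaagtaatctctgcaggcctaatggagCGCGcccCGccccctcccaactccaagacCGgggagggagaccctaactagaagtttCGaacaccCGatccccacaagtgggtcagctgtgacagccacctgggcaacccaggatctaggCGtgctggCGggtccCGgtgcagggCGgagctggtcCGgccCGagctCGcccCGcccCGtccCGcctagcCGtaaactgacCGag
These letters are the reference sequence of the BL6 strain, and the bases at which CAST differs were not used here. The windows held 17, 15 and 18 CG pairs (the 2 letters CG, which read alike on both strands). A RefSeq window was found for 312 members and 8916 genes of the other autosomes, and CG pairs were present in 98.7% and 99.2% of them. The median window held 17 CG pairs and 61.2% G or C among the members, against 16 and 60.4% on the other autosomes.

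The BL6 share of a gene is its BL6 count divided by its BL6 plus CAST count, summed over all 27 pairs. Its median over the 399 members was 33.4% (quartiles 28.7% and 38.2%), whereas the 11888 genes of the other autosomes with the same minimum had a median of 50.6% (46.0% and 55.5%). No other autosome came near this value, as their medians ran from 49.5% on chromosome 13 to 51.7% on chromosome 3. Expressed as a ratio, the median member had 1.99 CAST counts per BL6 count, against 0.977 on the other autosomes. The CAST excess was shared by most members. A share below 50% was found for 373 members (93.5%), against 46.2% of genes on the other autosomes (39.97% to 54.5% by chromosome). A share below 40% was found for 323 members (81.0%), against 13.1%. Of the members, 275 lay from 25% to 42%, 59 below 25%, 39 from 42% to 50% and 26 at 50% or more. The share lay below 50% in every one of the 27 pairs for 328 members and above 50% in every pair for 19.

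**Figure D1:**
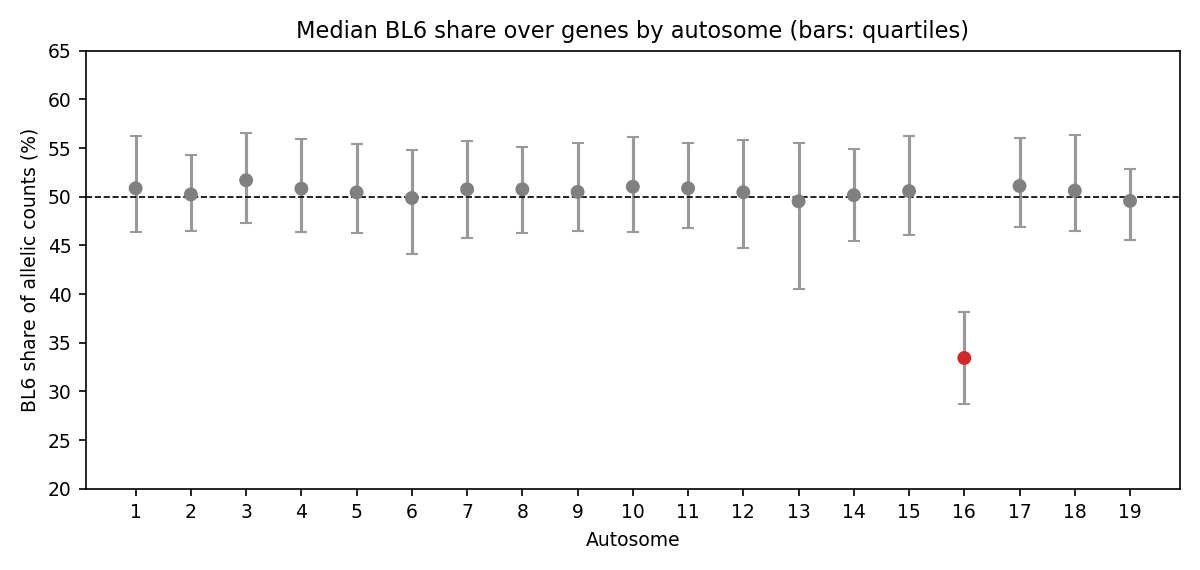
Median BL6 share of allelic counts (percent, vertical axis) over the genes of each autosome (horizontal axis) with a mean of at least 20 allelic counts. Bars span the quartiles over genes. Chromosome 16 sits at 33.4%, and the medians of the other autosomes lie between 49.5% and 51.7%.

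The value hardly varied between pairs. The median share of the members was lowest at 32.9%, 33.4% in the middle pair and highest at 33.9%. In the same pairs the lowest median of any other autosome was 48.9% to 49.7%, so chromosome 16 did not overlap the others in any of the 27 pairs. Summed over genes, the pair with the lowest share had 175648 BL6 counts of 510742 (34.4%, exact 95% binomial interval 34.3% to 34.5%) and the pair with the highest had 172471 of 493206 (35.0%, 34.8% to 35.1%). The intervals cover counting error only, and those of the lowest and the highest pair did not overlap. Counting error was thus small for each of these pairs, and the extremes lay further apart than it.

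The excess of CAST ran along the whole chromosome. In windows of 10 Mb the median share lay between 30.8% and 37.5% in 9 of the 10 windows, and was 22.9% in the window from 70 to 80 Mb, which held only 8 members. The largest windows were those from 10 to 20 Mb (103 members, 33.0%), 30 to 40 Mb (67 members, 33.0%) and 90 to 100 Mb (55 members, 36.5%). The highest medians were those from 40 to 50 Mb (25 members, 37.4%) and 50 to 60 Mb (26 members, 37.5%). No window of the chromosome therefore had a median near 50%. On the other autosomes, 235 windows with at least 8 genes had medians from 24.0% to 58.0%, with a median of 50.6%, and 1 of them lay below the highest window of chromosome 16.

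**Figure D2:**
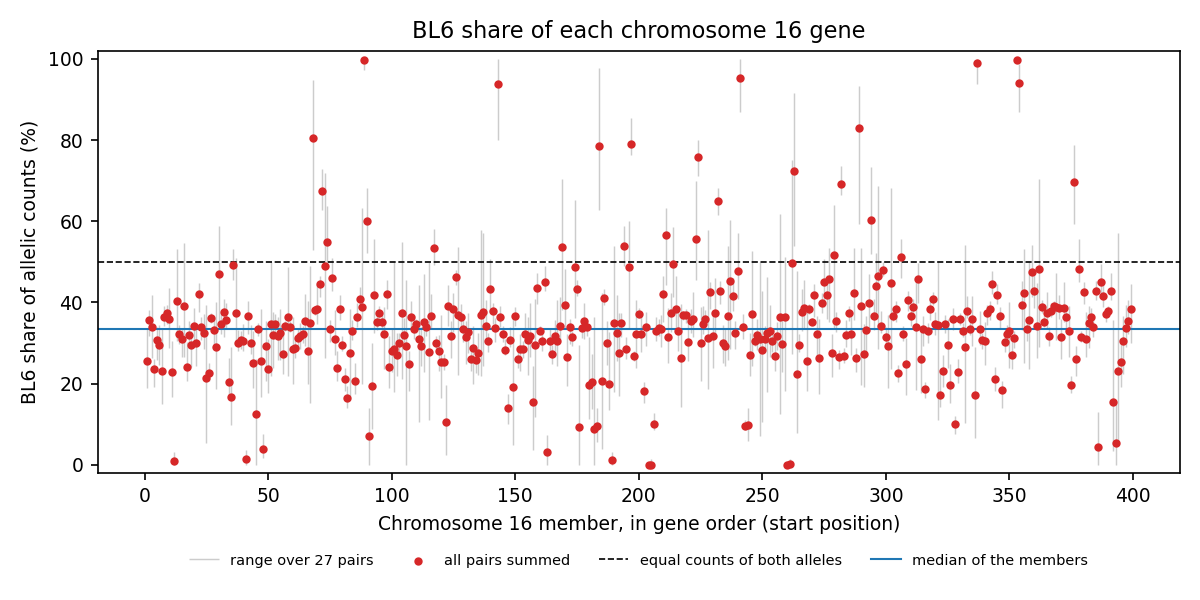
BL6 share of allelic counts (percent, vertical axis) of each of the 399 members in the order of their start positions (horizontal axis). Points are counts summed over 27 pairs, grey lines the range over pairs, the dashed line 50% and the blue line the median of 33.4%. Points below 50% fill the whole length of the axis, and 26 members lie at 50% or more.

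The share was similar at all levels of expression. In the 100 members of lowest level the median share was 32.1% (quartiles 25.5% and 41.9%), and in the 100 of highest level it was 34.7% (31.5% and 38.3%). The members between had, in order of level, 32.2% and 33.0%. Genes of the other autosomes in the same ranges of level had medians of 50.3% to 51.1%, with the widest spread likewise at the lowest level. The part of a gene's total counts that could be assigned to an allele, which depends on how many strain variants its RNA carries, was 44.0% for the median member and 44.9% on the other autosomes (39.8% to 49.7% by chromosome).

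The 12 members with the most allelic counts all leaned to CAST. Eif4g1, the scaffold of the translation initiation complex (positions 20668313 to 20692884, plus strand), had a BL6 share of 32.2% in the lowest pair, 32.9% in the middle pair and 34.3% in the highest. Etv5, an ETS transcription factor of ES cells (22381309 to 22439719, minus strand), ran from 31.1% through 33.5% to 35.6%. Tfrc, the transferrin receptor for iron uptake, ran from 35.6% through 36.8% to 38.0%. For these deeply counted genes the pairs differed by few percentage points and stayed well under 50%. Mcm4, a subunit of the replicative helicase, had a summed share of 29.4%, and Gart, a purine synthesis enzyme at the far end of the chromosome, 39.0%. Morc1, a germline and ES cell repressor, and Atp13a3, a transport ATPase, were the lowest of the 12 with 26.8% each. The other members of this group were Rsl1d1 (34.3%), Jam2 (33.0%), Rrn3 (38.0%), Naa50 (35.3%) and Atp6v1a (38.5%). The neighbouring Naa50, an acetyltransferase, and Atp6v1a, a proton pump subunit, thus both leaned to CAST. Their ranges over the pairs, 34.4% to 36.0% and 37.2% to 39.7%, did not overlap.

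By function, 118 of the 121 members in 11 lists of chromosome 16 genes had a share below 50%. All 12 DNA replication and repair genes did so, with a median of 34.7%, and a range from 21.05% for Prkdc (the DNA-dependent protein kinase) to 42.6% for Chaf1b (a chromatin assembly subunit). All 20 chromatin and transcription genes did so too (median 34.5%), from Zbtb20 at 22.4% to Ets2 at 45.0%, with the acetyltransferase Crebbp at 35.8% and the histone chaperone Hira at 33.7%. The translation list (11 genes, median 34.3%), RNA processing (10, 33.5%), protein folding and turnover (15, 33.9%), mitochondrial genes (10, 34.2%), metabolism and transport (14, 33.9%) and adhesion and guidance (8, 34.2%) also lay wholly below 50%. Medians therefore differed by under 2 percentage points among these 8 lists. The interferon and cytokine receptors had the highest median, 39.5% over 5 genes, with Ifnar1 at 33.5% and Ifngr2, a chain of the interferon gamma receptor, at 47.6%.

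The 3 list members above 50% were Dppa2, Itgb5 and the kinase Map3k13 (53.5%), of which the first belongs to the ES cell list (6 genes, median 30.5%) and the others to the signalling list (10 genes, median 34.7%). Dppa2 and Dppa4 encode partner proteins of pluripotent cells and lie next to each other. Dppa4 (48283733 to 48294237, plus strand) had a share of 23.6% in the lowest pair, 26.5% over all pairs and 28.3% in the highest. Dppa2 (48303908 to 48319723, plus strand) had 66.5%, 69.2% and 73.7%. The neighbours did not overlap in any pair and leaned to opposite alleles, and Morc1, the next member along the chromosome, was again CAST-rich at 26.8%. Their total levels were alike: Dppa4 ranged from 126 to 155 CPM over the 27 libraries and Dppa2 from 113 to 144 CPM.

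At the extremes, members were read almost from one allele. Among the 319 members with at least 100 allelic counts per library, Olig2 and Olig1, neighbouring transcription factors of the neural lineage, had BL6 shares of 99.8% and 94.2%. They were followed by Lrrc15, a leucine-rich repeat membrane protein (79.0%), Rpl35a, a ribosomal protein of a kind that often has pseudogene copies (75.9%), and Cbr3, a carbonyl reductase (69.7%). At the other end stood Ppp1r2 (0.0496%), Adprh (0.229%), Masp1, a complement protease (1.16%), Gm49448 (1.43%) and Ciita, the regulator of MHC class II genes (3.91%). Only 1.41% of the counts of Adprh were assigned to an allele, so its share rests on a small part of its RNA. Shares under 10% were found for 18 members (4.51%), against 1.72% of genes on the other autosomes, and shares of 90% or more for 6 members (1.504%), against 1.91%. Of the 26 members at 50% or more, 7 are not protein coding, and 252 of the 399 members overlap another gene. The sources used here do not say whether reads of overlapping genes were separated by strand.

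The total level of the members, both alleles together, was compared with the other autosomes as deposited RPKM, read counts scaled by gene length and library size. The deposited values are about 35.1 times the same quantity computed here from counts and exon lengths, so only ratios between genes can be read from them. The median member had an RPKM of 363, the highest of the 19 autosomes, against 236 over the other autosomes, a ratio of 1.54 (0.62 on the log2 scale with a pseudocount of 0.1). Chromosome 18 came next with 344 and chromosome 13 was lowest with 180, so the gap to the next chromosome was small beside the spread among the others. The level was also split by the BL6 share of each gene, the share by which the chromosome was chosen, so that a CAST part above the BL6 part follows from that choice and is a description only. The BL6 part had a median of 127, against 116 on the other autosomes (ratio 1.10; 83.2 to 176 by chromosome), and ranked 8 of 19. The CAST part had a median of 249, against 113 (ratio 2.19; 85.0 to 167 by chromosome), and ranked 1.

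**Figure D3:**
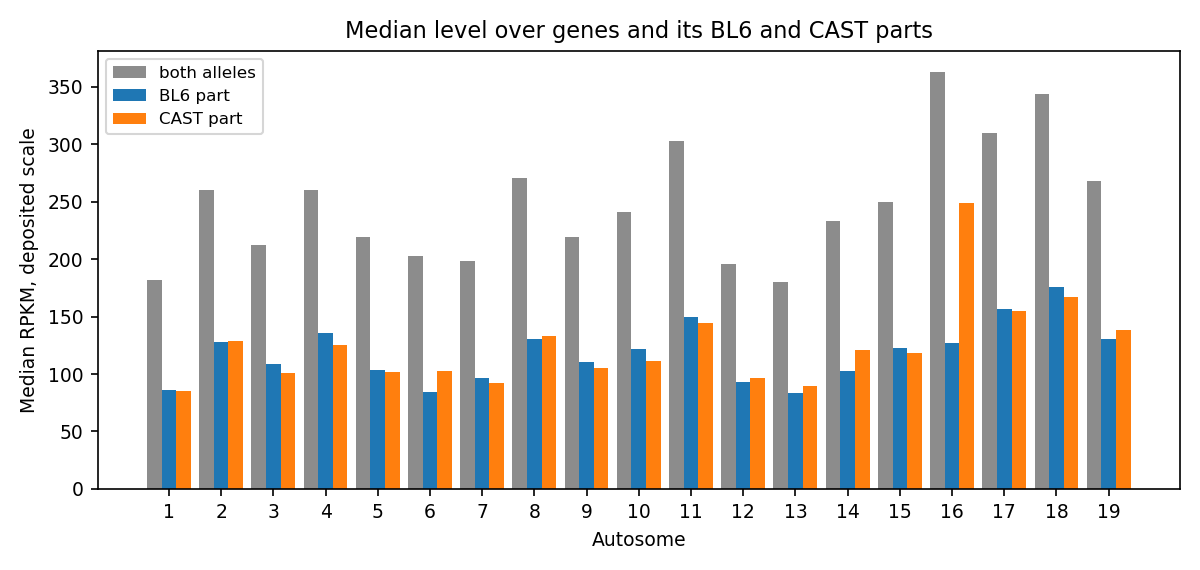
Median RPKM on the deposited scale (vertical axis) over genes of each autosome (horizontal axis) for both alleles together (grey) and for the BL6 (blue) and CAST (orange) parts, averaged over 27 libraries. The parts use the share that chose the chromosome. On chromosome 16 the CAST bar stands at 249 and the BL6 bar at 127, whereas the CAST bars of the other autosomes lie between 85.0 and 167.

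The higher level was present in every library. Chromosome 16 had the highest median of all autosomes in 27 of 27 libraries, from 357 to 382, while the other autosomes together had 229 to 243. On the log2 scale the difference per library ranged from 0.58 to 0.71. In the GFP line it was 0.62, 0.63, 0.65 and 0.67 in the untreated libraries, 0.66, 0.59, 0.63 and 0.71 with Dox and 0.59, 0.58, 0.60 and 0.63 with Dox+Auxin. For SPOC libraries it was 0.66, 0.63, 0.68, 0.70 and 0.68 untreated, 0.66, 0.63, 0.69, 0.68 and 0.70 with Dox, and 0.66, 0.68, 0.65, 0.69 and 0.67 with Dox+Auxin. The ranges of the untreated and treated groups overlapped in both lines, and the library with high Xist, at 0.63, was the lowest of its group. In GFP cells, however, the difference was lower with Dox+Auxin than in the untreated library of the same number in 4 of 4 pairs, by 0.03 to 0.05. Against the Dox library of the same number it was also lower in 4 of 4 cases (-0.08 to -0.02). In that comparison the numbers were not taken as pairing, and the groups overlapped. In SPOC, where the numbers were not taken as pairing either, it was lower with Dox+Auxin in 3 of 5 matches by number against untreated and in 2 of 5 against Dox. The members took 4.24% to 4.32% of the counts of all autosomal genes in untreated GFP libraries, 4.25% to 4.31% with Dox and 4.198% to 4.24% with Dox+Auxin. The GFP Dox+Auxin libraries thus lay below all other GFP libraries on this measure. In the SPOC line the percentages were 4.29% to 4.34% untreated, 4.29% to 4.34% with Dox and 4.26% to 4.31% with Dox+Auxin, and these ranges overlapped. Between SPOC libraries matched by number only, the percentage was lower with Dox+Auxin than with Dox in 5 of 5 matches (-0.06 to -0.02 percentage points). It was lower than untreated in 4 of 5 such matches. The size of the difference depends on which genes are kept: it was 0.50 with a minimum of 100 allelic counts and 0.82 for genes that overlap no other gene. Members were also longer, with a median exon length of 4.87 kb against 4.33 kb, and by CPM with no length the difference was 0.56.

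**Figure D4:**
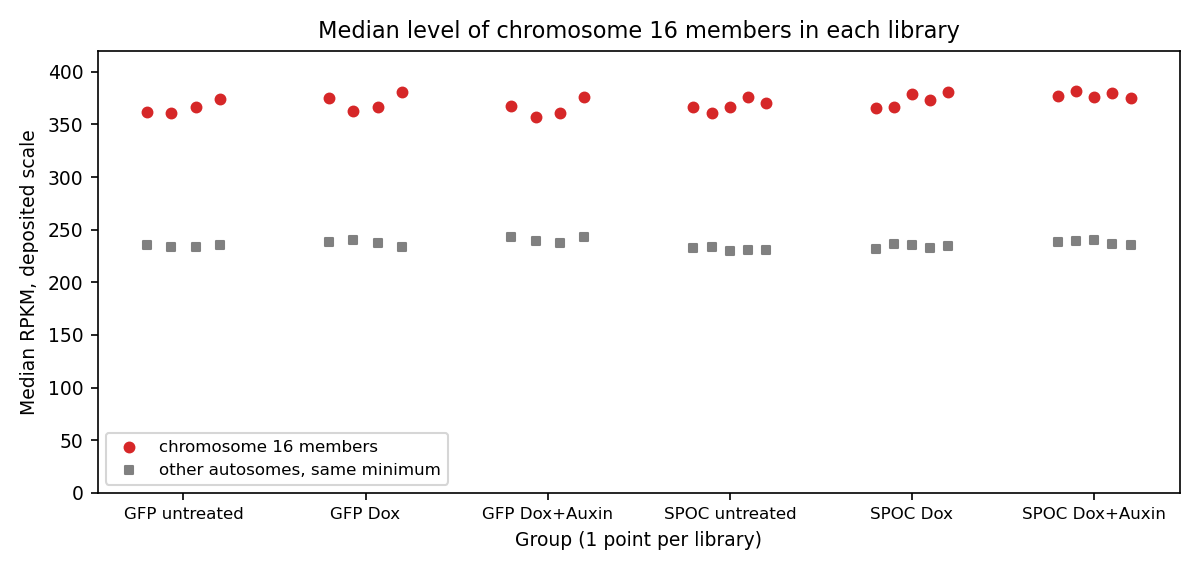
Median RPKM on the deposited scale (vertical axis) of the chromosome 16 members (red) and of genes of the other autosomes with the same minimum (grey) in each of the 27 libraries, by group (horizontal axis). Red points lie between 357 and 382 and grey points between 229 and 243 in all groups.

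The members' total counts were then compared between groups by edgeR's quasi-likelihood test, with p-values adjusted by Benjamini-Hochberg over all 18363 genes tested, which included all 399 members. These totals did not enter the choice of the chromosome. In the GFP line with Dox, 48 members rose, where 10.1% of all genes tested rose, and 28 fell, where 10.8% fell, with a median log2 fold change of 0.02. Fitted with only the groups compared, 82 rose and 40 fell. With a replicate block (a term per replicate number, shared by both lines) 73 rose and 44 fell. With Dox+Auxin against untreated 90 rose (all genes 19.9%) and 94 fell (18.4%), with a median of -0.01. With a replicate block 101 rose and 106 fell in that comparison. With Dox+Auxin against Dox 87 rose (24.7%), 116 fell (22.9%) and the median was -0.03. Each of these counts is to be read against its background. In the order of the 3 comparisons, 12.0%, 22.6% and 21.8% of the 399 members rose, and 7.02%, 23.6% and 29.1% fell. Genes of the other autosomes with the same allelic minimum, which are likewise the better expressed ones, rose in 13.6%, 24.6% and 27.2% of cases in the 3 comparisons and fell in 10.1%, 20.4% and 27.7%.

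In the SPOC line with Dox 37 members rose (all genes 6.16%) and 13 fell (7.33%) around a median of 0.01, and without the library of high Xist these were 43 and 18 (with a replicate block 53 and 26). With Dox+Auxin against untreated 83 rose (16.7%) and 80 fell (16.6%) around a median of 0.00, and without that library these were 81 and 76. With Dox+Auxin against Dox 58 rose (16.6%) and 79 fell (15.4%), with a median of -0.02. In the same order the members that rose were 9.27%, 20.8% and 14.5%, and those that fell 3.26%, 20.05% and 19.8%. Genes of the other autosomes with the same allelic minimum rose in 8.51%, 22.1% and 19.9% of cases and fell in 6.38%, 16.6% and 17.6%. In all 6 treatment comparisons the median member thus moved by 0.03 or less on the log2 scale, and the other autosomes' medians spanned -0.03 to 0.04. The median of chromosome 16 with Dox+Auxin against Dox in GFP was the lowest of the 19 autosomes (-0.03 to 0.01 for the others), and in SPOC it ranked 18 of 19 (-0.02 to 0.02 for the others). In the other 4 comparisons it ranked from 5 to 17. The comparisons against a common group share its libraries, and differences between the lines in response were not tested.

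Lrrc15 is one of the few BL6-rich members. With Dox+Auxin it had the largest rise in both lines among called members of at least 1 CPM whose groups did not overlap. Predicted genes, Rik names and pseudogenes were left out of this ranking. In the GFP line it was at 13.5, 17.5, 15.1 and 15.1 CPM untreated, 12.9, 17.9, 15.1 and 14.7 with Dox, and 42, 50.02, 43.3 and 47.9 with Dox+Auxin. The SPOC libraries held 21.5, 17.98, 9.51, 22.7 and 16.4 CPM untreated and 48.5, 50.5, 23.4, 51.3 and 43.3 with Dox+Auxin. All Dox+Auxin libraries lay above all untreated ones, and replicate 3 was the lowest SPOC library in both groups. The log2 fold change was 1.59 in GFP (SE 0.24, edgeR adjusted p = 1.8e-05) and 1.29 in SPOC (SE 0.22, edgeR adjusted p = 8.5e-05; 1.30 without the library of high Xist).

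Ifngr2, the interferon gamma receptor chain, rose in all 4 comparisons with untreated cells. In the GFP line it was at 8.18, 6.85, 7.94 and 7.09 CPM untreated, 14.3, 11.7, 12.0 and 13.4 with Dox, and 17.0, 13.99, 17.2 and 15.95 with Dox+Auxin. The SPOC libraries held 7.72, 9.33, 5.94, 7.63 and 5.32 CPM untreated, 9.17, 10.8, 9.10, 10.6 and 8.89 with Dox, and 13.6, 14.5, 12.1, 15.2 and 12.0 with Dox+Auxin. Groups of the GFP line did not overlap with the untreated one, while SPOC Dox overlapped it through the library of high Xist, the highest untreated one. The log2 fold change against untreated was 0.78 (SE 0.12, edgeR adjusted p = 9.4e-06) with Dox and 1.11 (SE 0.12, edgeR adjusted p = 9.4e-09) with Dox+Auxin in GFP, and 0.43 (SE 0.11, adjusted p = 0.0081) and 0.90 (SE 0.11, adjusted p = 1.9e-07) in SPOC. Without the library of high Xist the SPOC values were 0.54 (adjusted p = 4.0e-04) and 1.01 (adjusted p = 8.7e-09). Ifnar2, a chain of the type I interferon receptor in the same cluster, rose with Dox+Auxin by 0.22 in GFP (adjusted p = 0.011, but 0.072 without untreated replicate 2 or Dox+Auxin replicate 3) and by 0.27 in SPOC (0.28 without the library of high Xist), and Ifnar1 was at 0.01 in both (adjusted p = 0.89 and 0.88).

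Arvcf, a catenin of cell junctions, rose with Dox in both lines. It overlaps another gene in the annotation, and its counts are uncertain to that extent. In the GFP line it was at 74.96, 72.8, 68.5 and 71.4 CPM untreated and 100.2, 101.9, 95.5 and 97.3 with Dox. In the SPOC line it was at 70.1, 86.7, 64.3, 69.5 and 66.1 CPM untreated and 95.2, 97.8, 95.8, 99.4 and 98.4 with Dox. The second SPOC untreated value, 86.7, is that of the library of high Xist, and the other libraries of that group lay at 70.1 or below. The log2 fold change was 0.46 in GFP (SE 0.06, edgeR adjusted p = 1.7e-07) and 0.45 in SPOC (SE 0.05, edgeR adjusted p = 1.4e-07), or 0.53 in SPOC without that library (adjusted p = 8.6e-13). With Dox+Auxin in SPOC, Arvcf was also above untreated, by 0.36 (edgeR adjusted p = 1.5e-06), and at -0.08 against Dox (edgeR adjusted p = 0.21). Pros1, protein S of the clotting system, also rose with Dox in SPOC, by 0.32 (SE 0.05, adjusted p = 9.5e-05). Among called members ranked as for Lrrc15, the largest fall with Dox in GFP was that of Btla, an inhibitory lymphocyte receptor. Btla was at 7.0 ± 1.47 CPM (SD, n = 4) untreated and 4.37 ± 0.42 CPM with Dox (edgeR adjusted p = 0.0018). In SPOC Btla was at -0.45 (adjusted p = 0.027), and this call did not hold without replicate 1 or 4 of the untreated group (adjusted p = 0.083 and 0.072), without Dox replicate 4 or 5 (0.055 and 0.077), or with no filter on low counts (0.081). Socs1, a cytokine signalling inhibitor, fell with Dox by 0.52 in GFP (adjusted p = 0.0012) and by 0.33 in SPOC (adjusted p = 0.039). The SPOC call of Socs1 did not hold without untreated replicate 1, 3 or 5 or Dox replicate 1, 2 or 4 (adjusted p = 0.083 to 0.11), or with only the groups compared (0.080). Without the library of high Xist, Pros1 was at 0.33 in SPOC with Dox, Btla at -0.47 (adjusted p = 0.028) and Socs1 at -0.36 (adjusted p = 0.031).

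Among the largest falls with Dox+Auxin was Zbtb20, a zinc-finger repressor of neural and liver development. In the GFP line it was at 6.998, 7.73, 6.71 and 7.19 CPM untreated and 2.03, 2.64, 2.496 and 3.22 with Dox+Auxin, and in the SPOC line at 6.54, 5.403, 6.21, 6.25 and 5.78 untreated and 3.05, 2.61, 2.61, 3.31 and 2.29 with Dox+Auxin. The groups stood far apart in both lines, and the log2 fold change was -1.45 (SE 0.12, edgeR adjusted p = 7.5e-11) and -1.12 (SE 0.11, edgeR adjusted p = 3.1e-09). Tmem45a, a membrane protein, fell by 1.12 and 1.31 (adjusted p = 4.7e-08 and 2.5e-10), and Gap43, a growth-cone protein at 1 to 3 CPM, by 1.58 and 1.01 (adjusted p = 1.6e-09 and 1.0e-06). Without the SPOC library of high Xist, the SPOC log2 fold changes were -1.16 for Zbtb20, -1.29 for Tmem45a and -0.94 for Gap43. Zbtb20 and Gap43 overlap other genes in the annotation, which makes their counts uncertain.

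App, the amyloid precursor protein, was at 42.1, 40.5, 36.1 and 35.0 CPM in untreated GFP libraries and 24.2, 19.02, 20.8 and 21.9 with Dox+Auxin. The SPOC libraries held 34.1, 38.7, 42.7, 37.5 and 32.9 CPM untreated and 19.3, 18.9, 20.1, 19.5 and 13.9 with Dox+Auxin. No treated library reached the untreated range. App, whose gene overlaps another, fell by 0.82 in GFP (SE 0.10, edgeR adjusted p = 5.7e-07) and by 1.02 in SPOC (SE 0.09, edgeR adjusted p = 6.8e-09). Olig2, read almost wholly from BL6, was at 17.2, 16.8, 17.0 and 18.5 CPM in untreated GFP libraries and 8.60, 7.48, 8.13 and 8.77 with Dox+Auxin, a log2 fold change of -1.06 (SE 0.08, edgeR adjusted p = 4.8e-12). The SPOC libraries held 19.02, 20.1, 21.9, 19.7 and 18.2 CPM of Olig2 untreated and 14.6, 13.1, 16.4, 16.1 and 15.2 with Dox+Auxin, again without overlap, and it fell by 0.40 (SE 0.07, adjusted p = 2.0e-05). Gbe1, the glycogen branching enzyme, fell by 0.72 in GFP and by 1.07 in SPOC (adjusted p = 3.0e-07 and 6.0e-11). Without the library of high Xist the SPOC values were -1.004 for App, -0.39 for Olig2 and -1.08 for Gbe1. Abat, which breaks down the transmitter GABA, rose with Dox in GFP by 0.47 (adjusted p = 0.0061) and fell with Dox+Auxin against untreated by 1.06 (adjusted p = 4.7e-07).

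**Figure D5:**
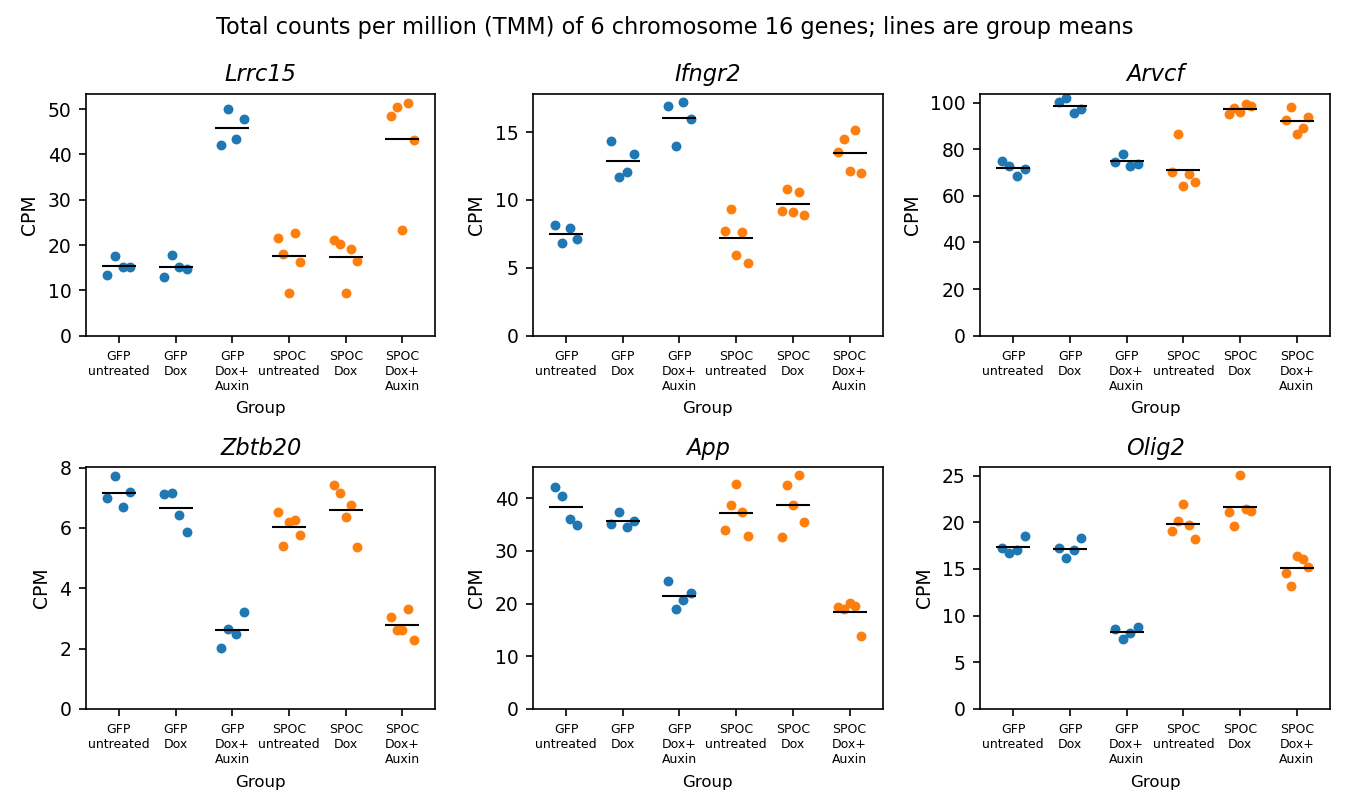
Total counts per library size (CPM, TMM-scaled, vertical axis from 0) of 6 members in each library by group (horizontal axis), with GFP in blue, SPOC in orange and lines at the group means. Lrrc15 and Ifngr2 are high and Zbtb20, App and Olig2 low with Dox+Auxin, and Arvcf is high with Dox in both lines, with the SPOC untreated library at 86.7 CPM above the rest of its group.

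Among the functional lists, few ES cell genes passed the test in total level. With Dox 1 of 6 rose in GFP (all genes 10.1%), namely Etv5 (by 0.14, adjusted p = 0.0042). In SPOC 2 of 6 rose (all genes 6.16%), Etv5 by 0.09 (adjusted p = 0.048) and Dppa4 by 0.14 (adjusted p = 0.014), or by 0.10 and 0.16 without the library of high Xist. The SPOC call of Etv5 was lost without untreated replicate 4 or 5 or Dox replicate 1, 3 or 5 (adjusted p = 0.061 to 0.16) and, among other alternatives, with no filter or only the groups compared (0.067 and 0.063). With Dox+Auxin against untreated 1 of 6 fell in each line (all genes 18.4% and 16.6%), again Etv5, by 0.34 and 0.24 (adjusted p = 5.3e-09 and 7.3e-07; at -0.23 in SPOC without that library), and none rose. The medians of the list in these 4 comparisons lay between -0.03 and 0.05. Dppa2, the BL6-rich neighbour of Dppa4, passed in none of them. Against Dox, 2 of 6 fell with Dox+Auxin in each line (all genes 22.9% and 15.4%), with list medians of -0.08 and -0.06. Etv5 fell by 0.48 and 0.33, and Dppa4 by 0.19 and 0.10 (adjusted p = 3.9e-04 and 0.042). With 6 genes, counts of 1 or 2 are too few to be read as a result about the list.

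Counts of called genes in the other lists with Dox+Auxin against untreated are to be read against all genes tested, of which 19.9% rose and 18.4% fell in GFP and 16.7% and 16.6% in SPOC. Metabolism and transport held the most calls of the lists relative to its size with Dox+Auxin against untreated in GFP, 8 of 14 members higher and 3 lower (median 0.13), and in SPOC 7 were higher and 4 lower (median 0.10). Both counts of members that rose are above the background shares, and no test of the list was made. Hlcs, which attaches biotin to enzymes, rose by 0.54 and 0.36, while Umps, of pyrimidine synthesis, fell by 0.20 and 0.09. The translation list had 1 higher and 5 lower of 11 in GFP (median -0.05) and 1 higher and 2 lower in SPOC (median -0.06), with the release factor Gspt1 lower by 0.17 and 0.12. DNA replication and repair had 4 of 12 higher and 2 lower in GFP and 4 higher and 0 lower in SPOC. The clamp-loader subunit Rfc4 rose by 0.28 and 0.20, and Mcm4 was at -0.18 (adjusted p = 4.5e-05) in GFP and -0.05 (adjusted p = 0.18) in SPOC. The chromatin list had 4 of 20 higher and 6 lower in GFP and 6 higher and 4 lower in SPOC, of which 4 of 20 is near the background share and is no result about the list. Bbx, an HMG-box factor, fell by 0.81 and 0.66 (adjusted p = 1.7e-10 and 1.7e-09), and Brwd1, a bromodomain protein, rose by 0.24 and 0.29. Among adhesion genes, 2 of 8 were higher and 4 lower in GFP and 1 higher and 3 lower in SPOC. Nectin3 rose by 0.22 and 0.26 and the guidance receptor Robo1 fell by 0.42 and 0.34, whereas Jam2, a junction protein, fell by 0.47 in GFP and was at -0.02 (adjusted p = 0.80) in SPOC. Without the library of high Xist the SPOC counts were 4 higher and 4 lower in the chromatin list and 0 and 3 in the translation list, and the counts of the metabolism, replication and adhesion lists were the same. The SPOC log2 fold changes were then 0.35 for Hlcs, -0.08 for Umps, -0.13 for Gspt1, 0.19 for Rfc4, -0.67 for Bbx, 0.27 for Brwd1, 0.26 for Nectin3 and -0.32 for Robo1. The lists hold 8 to 20 genes, so a single call moves a share by several percentage points. The median over all genes tested was 0.00 in GFP and -0.01 in SPOC in this comparison.

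Between the untreated lines, SPOC against GFP, 38 members were higher (all genes 5.79%) and 25 lower (5.77%), or 9.52% and 6.27% of the members, where 6.90% and 7.67% of the other autosomes' genes with the same allelic minimum passed. The counts were 29 and 18 without the SPOC library of high Xist. The median log2 fold change was 0.02, the highest of the 19 autosomes (-0.02 to 0.01 for the others). This direction depends on the filter on low counts: without it 12 members were higher and 28 lower, with a median of 0.00. The count also rests on single libraries, as 26 members passed without GFP untreated replicate 1, 28 without GFP untreated replicate 2, 36 without SPOC untreated replicate 4 and 39 without SPOC untreated replicate 5. Litaf, an endosomal protein, was at 76.2, 73.9, 70.1 and 67.9 CPM in GFP and 57.2, 59.7, 57.3, 55.8 and 57.8 in SPOC. The lines did not overlap (log2 fold change -0.30, SE 0.04, edgeR adjusted p = 4.1e-05). Slc12a8, a membrane transporter, was lower in SPOC (log2 fold change -0.52, adjusted p = 5.4e-04), and Robo1 was higher by 0.36 (SE 0.06, adjusted p = 4.7e-04). Without the SPOC library of high Xist these were at -0.58 and 0.34, and Litaf was at -0.32. As each construct is in 1 line, an effect of SPOC and other differences between the lines cannot be told apart.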

How the data were processed

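Total RNA was sequenced from 27 libraries in 6 groups. The submitters' processing notes list the mm10 build and, among tools, STAR 2.5.3a, featureCounts, Trim Galore 0.4.4, DESeq2 1.18.1 and Picard 2.18.2. How alleles were assigned, on which strand reads were counted and with which annotation was not given in the sources used here. Per the file headers, the table the authors deposited holds raw counts per gene, RPKM and counts per allele for 53801 genes, with names such that each allelic count column should belong to 1 library. The RPKM were checked to be the deposited counts times a gene factor and a library factor. They were about 35.1 times the values computed from the counts and GENCODE exon lengths, within 1.2-fold for 96.6% of 19571 genes.

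Gene positions came from GENCODE M21 (GRCm38). Members are chromosome 16 genes with a mean of at least 20 allelic counts; some genes of the chromosome are not reported here by name. The members and lists were chosen with earlier results of these data known. Shares and RPKM medians are descriptions without a test, since genes are not replicates. Total counts were filtered with filterByExpr to 18363 genes, scaled by TMM and fitted over all 27 libraries with a term per group (edgeR 4.0.16, R 4.3.3, robust quasi-likelihood test). A gene was called at an adjusted p (Benjamini-Hochberg) under 0.05, and each standard error was derived from the F statistic and fold change. The text names the 12 members with the most allelic counts, the 5 lowest and 5 highest shares among members with at least 100 counts, list members, and some of the 5 top rises and 5 top falls of each comparison in called members of at least 1 CPM whose groups did not overlap, leaving out predicted genes, Rik names and pseudogenes. Abcc5 was taken as the most counted member whose RefSeq and GENCODE starts coincide and whose upstream window holds no annotated gene. Genes at the edge of the minimum are also named.

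The design text calls the replicates biological. No libraries of a group agreed within sampling noise (lowest chi-square per gene 1.76). The deviations of libraries sharing a replicate number correlated over genes at 0.10 to 0.21 in 4 of 4 pairs of GFP Dox+Auxin against untreated. There the numbers were taken as pairing, but the main values given come from the fit without a block. Correlations were also positive in every pair of GFP Dox (0.02 to 0.15), SPOC Dox (0.06 to 0.32) and SPOC Dox+Auxin (0.09 to 0.24) against untreated. In these the numbers were not taken as pairing. In the other comparisons both signs occurred. The fit with a replicate block is an alternative throughout. Its term per replicate number was shared by both lines, although between the untreated lines the deviations of same-numbered libraries correlated at only -0.05 to 0.05. It is therefore not a fit of pairs within each line. Other alternatives were DESeq2 size factors and the DESeq2 1.42.0 Wald test, no filter on low counts, only the groups compared, each library left out, and other allelic minimums, gene sets and averages. The steps were tested on simulated counts.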

Additional observations from a re-analysis of the deposited data

Results flagged for a closer look

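Dixon's criterion was applied to the libraries of each group. It covered some of the members named in the text, the median RPKM of chromosome 16 and its log2 difference from the other autosomes. In 5 of 126 such tests 1 library stood apart from the rest of its group, which chance alone meets in about 1 of 20. Arvcf was at 86.7 CPM in SPOC untreated replicate 2, the library of high Xist, with the nearest library at 70.1. Lrrc15 was at 23.4 CPM in SPOC Dox+Auxin replicate 3 (nearest 43.3), and Pros1 at 239 CPM in the same library (nearest 200). App was at 13.9 CPM in SPOC Dox+Auxin replicate 5 (nearest 18.9). Litaf was at 57.9 CPM in GFP Dox+Auxin replicate 4 (nearest 62.1).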

How the results depend on the processing

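The median BL6 share of the members (33.4%) was 32.9% for genes that overlap no other gene, 34.6% with counts summed over genes and 34.3% as a mean over genes. The log2 difference in RPKM from the other autosomes (0.62) was 0.78 with a minimum of 5 allelic counts, 0.50 with a minimum of 100, 0.74 for protein-coding genes, 0.82 for genes that overlap no other gene, 0.57 with the mean in place of the median, 0.69 for all genes with at least 1 CPM and 0.56 by CPM with no length. It kept its direction in each of these, and lay between 0.62 and 0.63 with single libraries left out.

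With a replicate block, the members called with Dox against untreated numbered 117 in GFP (main 76) and 79 in SPOC (main 50), where the numbers were not taken as pairing. The block moved no other count of members by over 1.5 times. With only the groups compared, 122 were called with Dox in GFP. For SPOC against GFP untreated (main 63), 40 were called with no filter on low counts and 26 to 61 with single libraries left out. In the other comparisons, leaving out a library gave 56 to 77 (GFP Dox), 160 to 186 (GFP Dox+Auxin), 188 to 204 (GFP Dox+Auxin against Dox), 37 to 61 (SPOC Dox), 145 to 165 (SPOC Dox+Auxin) and 121 to 149 (SPOC Dox+Auxin against Dox) called members. Where counts moved, the cause was not tested. Of the changes of the members chosen for large rises or falls, 645 values under alternatives kept their call and 5, all of Btla in SPOC with Dox, lost it. The precision of a share is limited by the allelic counts behind it, and the shares cannot be set against treatments.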

Other observations

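On the other autosomes, 1 window of 10 Mb was as CAST-rich as chromosome 16. On chromosome 6 from 130 to 140 Mb, 28 genes with the same allelic minimum had a median BL6 share of 24.0%, against 50.1% for the other 570 genes of that chromosome, and 19 of the 28 lay below 40%. Strap, an RNA-binding assembly factor, was at 0.0959%, its neighbour Dera at 0.0762%, Gprc5a at 6.16% and Atf7ip at 21.2%, whereas Etv6 was at 56.2% and Lrp6, a Wnt co-receptor, at 53.3%. These genes were named after their values were seen. The median RPKM in this window was 213 on the deposited scale, against 202 on the rest of chromosome 6 and 363 on chromosome 16 as a whole. Chromosome 16 windows of similar size stood at 225 (40 to 50 Mb, 25 members) and 205 (50 to 60 Mb, 26 members). All other windows of chromosome 16 stood at 321 or more. The next lowest window was that from 90 to 100 Mb on chromosome 14 (8 genes, 42.01%).

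Further members of chromosome 16 under 10%, named after their values were seen, included Hspbap1 (9.64% of 2410 allelic counts per library), Kng2 (9.66%), the interferon-induced genes Mx1 (5.32%) and Parp14 (9.76%), and Apod (0.0571%). At the other end, Gap43 (72.5%), Mpv17l (67.4%) and Klhl22 (53.4% of 4016 allelic counts per library) leaned to BL6.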
